A study of Mus musculus with 12 samples.

Results

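Transcripts of 9 genes of lipolysis control and the lipid droplet were followed in mouse liver after a glucocorticoid injection and after a week of zinc. The genes were taken by their Ensembl mouse symbols from the table of raw counts, as 9 of its 54838 genes, and all 9 had reads in every group. They fall into 3 roles: *Angptl4* and *Angptl8*, secreted inhibitors of lipoprotein lipase; *G0s2*, *Pnpla2*, *Pnpla3* and *Lpin1*, which act on stored or newly made glycerolipid; and *Plin2*, *Plin5* and *Cidec*, which coat the lipid droplet. The livers came from 12 C57BL/6J mice in 4 groups of 3, and each liver gave 1 library. All mice drank for 7 days, either plain water or water with 25 mM ZnSO4. They were then injected with PBS alone or with 200 µg of dexamethasone in PBS (Dex, a drug that activates the glucocorticoid receptor), and the liver was taken 2 h later. This gave the PBS groups water-PBS and zinc-PBS and the Dex groups water-Dex and zinc-Dex. No mouse was left uninjected, so each Dex group was compared with the PBS group on the same drinking water. The libraries held between 9091152 and 12303527 counted reads.

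Liver takes up fatty acids that lipoprotein lipase frees in other tissues, and ANGPTL4 and ANGPTL8 help decide where that enzyme works: ANGPTL4 is a fasting signal that restrains it in adipose tissue, and ANGPTL8 is made after feeding and in response to insulin. Inside the cell, adipose triglyceride lipase (ATGL, encoded by *Pnpla2*) takes the first fatty acid from stored triglyceride, and the small protein G0S2 blocks it. Perilipin 5 binds ATGL and its activator and ties droplets to mitochondria, perilipin 2 is the common coat protein of hepatocyte droplets, and CIDEC lets droplets fuse. Lipin 1 makes the diacylglycerol used for triglyceride synthesis and also acts in the nucleus as a partner of PPAR alpha, and PNPLA3 is a droplet protein best known for its link with fatty liver.

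The labelled tissue and the Dex injection were looked at first, and the zinc label was not checked here. The 6 hepatocyte markers summed to between 1268168 and 1528062 normalized counts in the PBS mice and between 1657721 and 1825389 in the Dex mice, without overlap. Most of this sum was *Alb*, at 961037 to 1138887 in PBS mice and 1250953 to 1349826 in Dex mice. *Apoa1* was also apart, at 64025 to 85992 and 102471 to 138937. *Apob*, *Ahsg*, *Ttr* and *Fgb* each overlapped between PBS and Dex mice. Of 6 adipocyte markers, *Lep* and *Retn* were at 0 in all libraries and *Adipoq*, *Plin1* and *Cfd* never passed 3 reads, whereas *Fabp4* (fatty acid binding protein of adipocytes, macrophages and endothelium) went from between 91.2 and 114.7 normalized counts in PBS mice to between 224.4 and 293.3 in Dex mice. All 10 listed targets of the glucocorticoid receptor rose in water-Dex against water-PBS, led by *Ddit4* (log2 fold change 5.11), *Fkbp5* (3.12), *Sgk1* (2.81), *Tat* (2.72) and *Dusp1* (2.51). Of all genes tested, 4.89% rose. On zinc water 9 of the 10 targets were called higher. This list was chosen with earlier results of these data known, so its count is a description and not an independent check. Of 5 endothelial markers, *Lyve1* rose and *Kdr* fell with Dex, and their sum was between 2635 and 2974 normalized counts in water-PBS and between 2946 and 3205 in water-Dex. The 5 stellate cell markers summed to between 3938 and 4265 in water-PBS and between 4384 and 4426 in water-Dex. On zinc water the sum was between 3784 and 3809 in zinc-PBS and between 4122 and 4836 in zinc-Dex. Within this list, *Dcn* was at 2098 to 2339 in PBS mice and at 2351 to 3040 in Dex mice. *Lrat* went the other way, at 347 to 376 in PBS mice and 183 to 336 in Dex mice. *Reln*, *Des* and *Rgs5* overlapped between PBS and Dex mice. None of the 6 hepatocyte, 5 stellate cell, 5 Kupffer cell, 4 cholangiocyte or 4 pancreatic acinar markers was called on either drinking water, and of 4 red blood cell markers 1 was, on zinc water. The part of these markers in the members' changes was not tested. In whole liver, fewer cells of a type and less RNA per cell cannot be told apart.

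Dex moved most of the set within 2 h, and in both directions. In water-Dex against water-PBS, the perilipin gene *Plin5*, the lipin gene *Lpin1*, the lipase gene *Pnpla2* and *Pnpla3* rose, while the lipase inhibitor *G0s2*, *Angptl8* and *Plin2* fell. A gene was called when its DESeq2 adjusted p was below 0.05 and its log2 fold change was beyond 0.8 in either direction. By this rule 4 of the 9 members rose, against 4.89% of the 14221 genes tested, and 3 fell, against 4.79%. In 7 of the 9 members the 3 Dex mice and the 3 PBS mice did not overlap, which was so for 39% of the genes tested. The median log2 fold change of the 9 members was 1.08 and that of all genes tested was -0.01. The members were chosen with earlier results of these data known, so the values for all genes are given beside them as a description only. The 2 members not called were *Angptl4* and *Cidec*. With edgeR the number called was also 7, but *Angptl4* (adjusted p = 0.0305) took the place of *Pnpla3* (adjusted p = 0.0570).

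**Figure D1:**
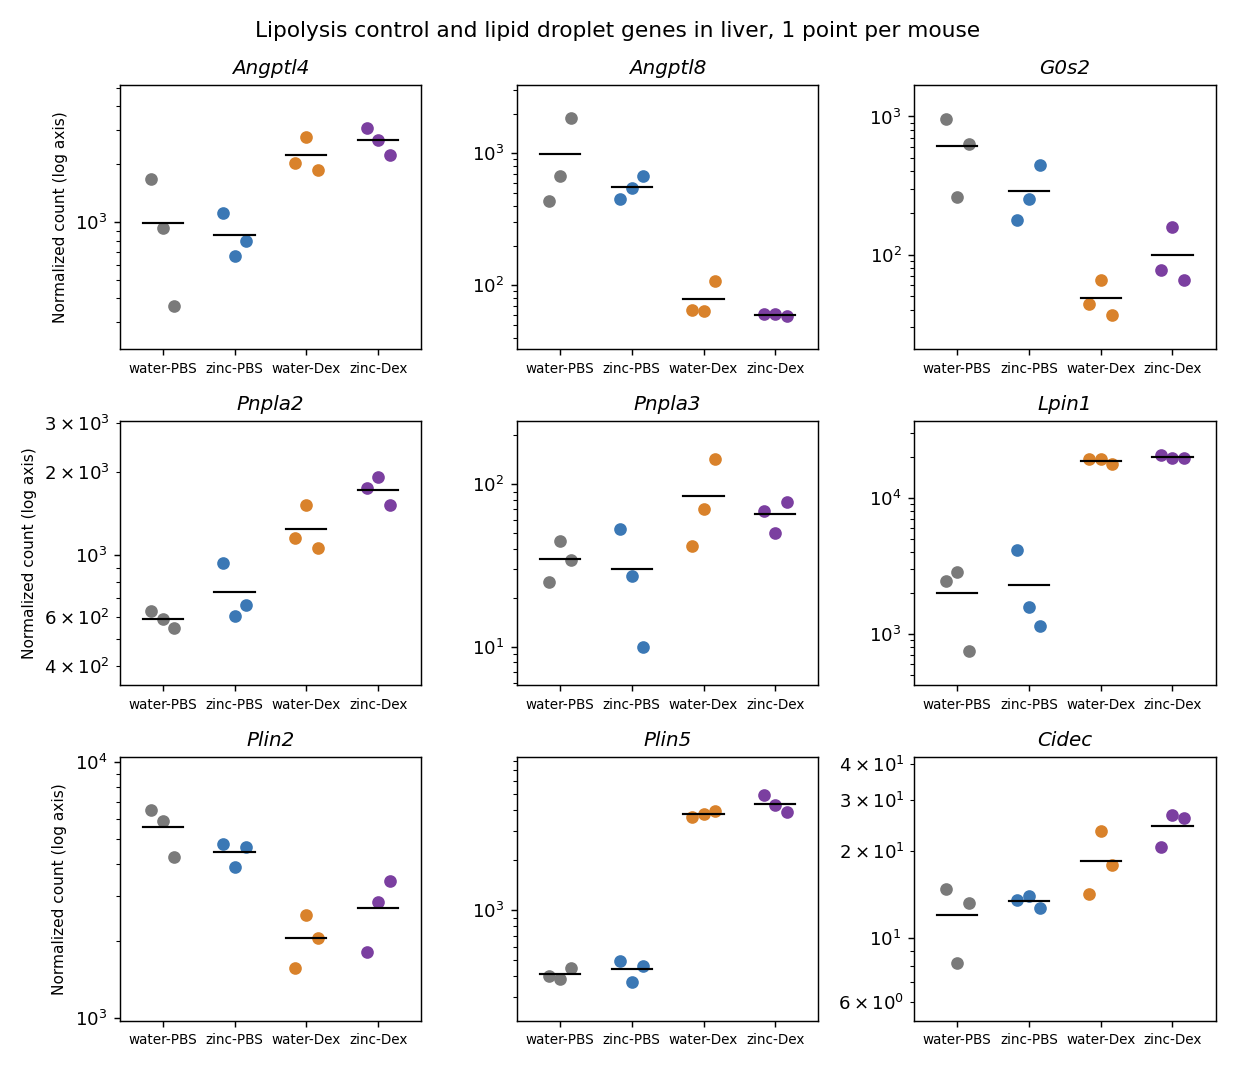
Normalized counts of the 9 members (log axis) in each of the 12 mice, by group; points are mice and lines are group means. *Lpin1* and *Plin5* sit in separate high bands in the 6 Dex mice, *Angptl8* and *G0s2* sit low in them, and the water and zinc groups overlap for most genes.

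*Angptl8* and *Angptl4* encode inhibitors of the same enzyme and their levels went apart. *Angptl8* (ENSMUSG00000047822, chromosome 9, 21835510 to 21837347, GRCm38) had 439, 677 and 1849 normalized counts in the 3 water-PBS mice and 65.0, 63.8 and 109 in the 3 water-Dex mice. Every Dex mouse lay below every PBS mouse, and the third PBS mouse stood well above the other two. *Angptl8* fell by 3.64 on the log2 scale (SE 0.50, 12.5-fold lower, DESeq2 adjusted p = 7.4e-12). Without the third water-PBS mouse the log2 fold change was -2.81, and *Angptl8* remained called in all 11 alternative analyses.

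*Angptl4* (ENSMUSG00000002289, chromosome 17, 33773750 to 33781830) had 1679, 935 and 364 normalized counts in water-PBS and 2038, 2765 and 1858 in water-Dex. All 3 Dex mice were above all 3 PBS mice, but the PBS mice themselves spread 4.62-fold. The log2 fold change was 1.16 (SE 0.47, 95% interval 0.23 to 2.09) and the adjusted p was 0.0620 in DESeq2, so the gene was not called. Leaving out the first water-PBS mouse, the highest of its group, gave 1.77 with an adjusted p of 0.000178, and leaving out the third, the lowest, gave 0.77 with an adjusted p of 0.0972. The mouse lowest in *Angptl4* was thus the one highest in *Angptl8*.

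Among the genes of lipase control, the lipase and its inhibitor moved in opposite directions. *G0s2* (ENSMUSG00000009633, chromosome 1, 193272161 to 193273217) had 958, 260 and 629 normalized counts in water-PBS and 43.7, 65.9 and 36.6 in water-Dex. The groups were far apart even though the PBS mice ranged 3.68-fold among themselves. *G0s2* fell by 3.66 (log2, SE 0.57, 12.6-fold lower, DESeq2 adjusted p = 2.7e-09), and the value stayed between -4.03 and -3.19 in the alternatives. *Pnpla2* (ENSMUSG00000025509, chromosome 7, 141455198 to 141460743), the ATGL gene, had 630, 591 and 546 normalized counts in water-PBS and 1158, 1521 and 1066 in water-Dex. Each Dex mouse exceeded each PBS mouse, and the PBS mice were close together. *Pnpla2* rose by 1.08 (log2, SE 0.17, 2.12-fold, DESeq2 adjusted p = 4.5e-09).

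*Lpin1* (ENSMUSG00000020593, chromosome 12, 16535669 to 16610966) became the most abundant of the 9 by reads. It had 2421, 2825 and 741 normalized counts in water-PBS and 19218, 19281 and 17761 in water-Dex. The PBS mice spread 3.81-fold and the Dex mice only 1.09-fold, with the third PBS mouse again apart from its group, here at the low end. *Lpin1* rose by 3.23 (log2, SE 0.53, 9.40-fold, DESeq2 adjusted p = 2.6e-08), and by 2.84 without that mouse. The transcript of *Pnpla3* (ENSMUSG00000041653, chromosome 15, 84167837 to 84187236) was scarce, with 25.2, 44.6 and 34.0 normalized counts in water-PBS and 41.6, 70.2 and 143 in water-Dex. The lowest Dex mouse lay inside the PBS range and the third Dex mouse was the highest of all 12. *Pnpla3* was called with a log2 fold change of 1.30 (SE 0.48, DESeq2 adjusted p = 0.0339), but 9 of 11 alternatives lost the call, and without the third water-Dex mouse the log2 fold change was 0.69 (adjusted p = 0.387). Its exons overlap those of Gm49513 on the same strand, so its reads are uncertain.

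The 3 droplet coat genes went 3 ways. *Plin5* (ENSMUSG00000011305, chromosome 17, 56111601 to 56117596) had 399, 383 and 449 normalized counts in water-PBS and 3677, 3784 and 3954 in water-Dex. Both groups were tight and far apart, with a 1.17-fold range in the PBS mice and 1.08-fold in the Dex mice. *Plin5* rose by 3.21 (log2, SE 0.12, 9.28-fold, DESeq2 adjusted p = 2.8e-147). *Plin2* (ENSMUSG00000028494, chromosome 4, 86648386 to 86670060) had 6511, 5879 and 4258 normalized counts in water-PBS and 1573, 2528 and 2062 in water-Dex. No Dex mouse reached the lowest PBS mouse, and *Plin2* fell by 1.43 (log2, SE 0.22, 2.70-fold lower, DESeq2 adjusted p = 1.3e-09). *Cidec* (ENSMUSG00000030278, chromosome 6, 113424634 to 113435760) was near the floor of the table, with 14.7, 8.19 and 13.2 normalized counts in water-PBS and 14.2, 23.4 and 17.8 in water-Dex. The groups overlapped, and the log2 fold change of 0.63 (95% interval -0.17 to 1.43, DESeq2 adjusted p = 0.306) was not called.

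Per kilobase of exon, the order of the 9 levels differed between PBS and Dex mice. Lengths were taken over all annotated exons of a gene, and the order between genes depends on that choice. In water-PBS, *Plin2* led with a mean of 1580 normalized counts per kb, followed by *Angptl8* (1143), *G0s2* (707), *Angptl4* (280), *Lpin1* (207), *Plin5* (197) and *Pnpla2* (195), whose ranges overlapped from each gene to the next. *Pnpla3* (22.4) and *Cidec* (6.48) lay below, each clear of the gene before it. In water-Dex, *Lpin1* (1940) and *Plin5* (1823) came first with overlapping ranges, then *Angptl4* (627), *Plin2* (585) and *Pnpla2* (413), each overlapping the next. *Angptl8* (91.6), *G0s2* (56.0) and *Pnpla3* (55.0) overlapped one another in turn and *Cidec* (9.95) was last. The zinc-PBS and zinc-Dex mice had the same gene in the last place, *Plin2* first in zinc-PBS (1266), and *Plin5* (2104) and *Lpin1* (2072) first in zinc-Dex.

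The level of one member over another in the same mouse does not depend on library size. The 3 pairs given were chosen after their values were seen, so they are given as a description. *Pnpla2* over *G0s2*, per kb of exon, was 0.190, 0.655 and 0.250 in the water-PBS mice and 7.65, 6.65 and 8.39 in the water-Dex mice. *Plin5* over *Plin2* was 0.103, 0.110 and 0.177 in water-PBS and 3.94, 2.52 and 3.23 in water-Dex. *Angptl4* over *Angptl8* was 0.935, 0.337 and 0.0480 in water-PBS and 7.66, 10.6 and 4.17 in water-Dex. All 3 ratios lay below 1 in every water-PBS mouse and above 1 in every water-Dex mouse. Where a ratio lies against 1 depends on the exon lengths used, while its change between groups does not. In the zinc mice the same held for all but 1 value: the first zinc-PBS mouse had 1.53 *Pnpla2* per *G0s2*, where the other two had 0.692 and 0.433.

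**Figure D2:**
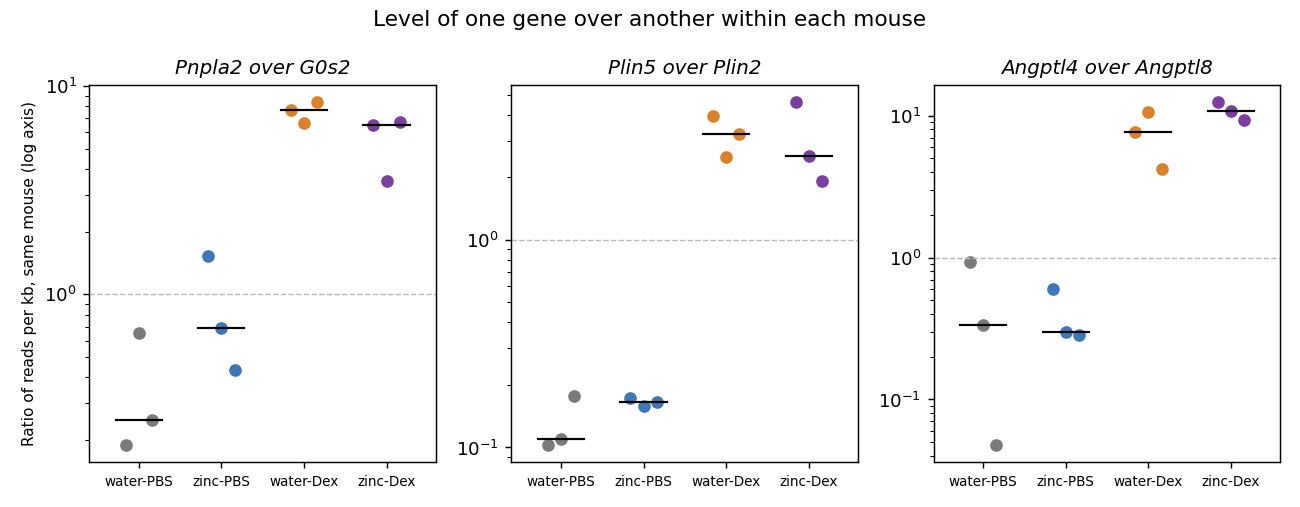
Ratio of the level of one member to another in the same mouse (normalized counts per kb of exon, log axis), with 1 point per mouse and the group median as a line; the dashed line marks equal levels. All Dex mice lie above 1 for the 3 pairs, and all PBS mice lie below it except 1 zinc-PBS mouse for *Pnpla2* over *G0s2*.

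In mice on zinc water, all 9 estimates of the Dex effect had the same sign as on plain water, and 6 of 9 members were called, 4 higher (5% of 15657 genes tested) and 2 lower (4.68%). In 8 of the 9 the groups did not overlap, against 38.1% of the genes tested. *Lpin1* had 4125, 1565 and 1133 normalized counts in zinc-PBS and 20783, 19644 and 19664 in zinc-Dex, and *Plin5* had 493, 365 and 459 against 4956, 4293 and 3925. In both genes all zinc-Dex mice were far above all zinc-PBS mice. *Lpin1* rose by 3.14 (log2, SE 0.53, DESeq2 adjusted p = 7.7e-08; 3.89 without the first zinc-PBS mouse) and *Plin5* by 3.32 (SE 0.12, adjusted p = 7.7e-161). *Pnpla2* went from 937, 606 and 665 to 1747, 1908 and 1518 normalized counts, a rise of 1.23 (SE 0.17, adjusted p = 1.1e-11).

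*Angptl4*, which missed the threshold on plain water, was called here. It had 1108, 667 and 795 normalized counts in zinc-PBS and 3099, 2681 and 2230 in zinc-Dex. The zinc-PBS mice were closer together than the water-PBS mice (1.66-fold against 4.62-fold), and no zinc-Dex mouse came near them. *Angptl4* rose by 1.64 (log2, SE 0.47, 3.12-fold, DESeq2 adjusted p = 0.00440) and was called in all 11 alternatives. *Angptl8* went from 452, 547 and 678 to 60.8, 61.1 and 58.6 normalized counts, the 3 zinc-Dex mice lying within 1.04-fold of each other. It fell by 3.22 (log2, SE 0.50, 9.29-fold lower, DESeq2 adjusted p = 3.2e-09).

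All 3 decreases had smaller estimates on zinc water than on plain water, and those of *G0s2* and *Plin2* came closest to the thresholds. *G0s2* had 177, 253 and 443 normalized counts in zinc-PBS and 77.1, 158 and 65.4 in zinc-Dex. The groups did not overlap, but the highest zinc-Dex mouse came close to the lowest zinc-PBS mouse. *G0s2* fell by 1.54 (log2, SE 0.56, 2.91-fold lower, DESeq2 adjusted p = 0.0335). This call was lost without the second zinc-PBS mouse (-1.63, adjusted p = 0.0737), the third zinc-PBS mouse (-1.10, 0.233), the first zinc-Dex mouse (-1.38, 0.143) or the third zinc-Dex mouse (-1.31, 0.153). *Plin2* had 4786, 3873 and 4675 normalized counts in zinc-PBS and 1808, 2839 and 3432 in zinc-Dex. All zinc-Dex mice were lower, and the log2 fold change was -0.72 (SE 0.22, DESeq2 adjusted p = 0.00698), short of the fold threshold. It passed without the second zinc-PBS mouse (-0.81) or the third zinc-Dex mouse (-0.93). *Pnpla3* (1.12, adjusted p = 0.0841) and *Cidec* (0.87, adjusted p = 0.0971) were not called; *Pnpla3* was called without the first zinc-PBS mouse (1.82, adjusted p = 0.00224).

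**Figure D3:**
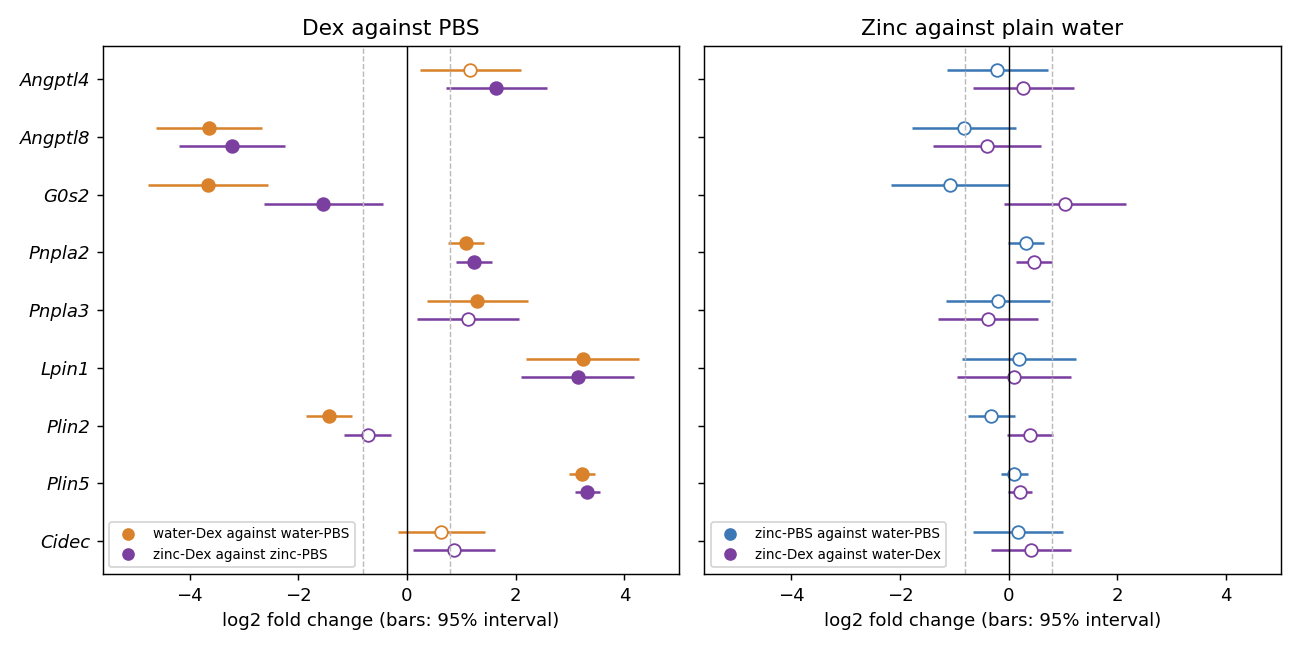
log2 fold changes of the 9 members with 95% intervals, Dex against PBS (left) and zinc against plain water (right); filled points were called, open points were not, and dashed lines mark the fold threshold of 0.8. In the left panel *G0s2* is at -3.66 on plain water and -1.54 on zinc water, and in the right panel no point is filled.

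Whether zinc changed the response to Dex was tested by the interaction, the Dex effect in zinc mice minus that in water mice. No member was called, against 5 of 26185 genes (0.0191%), and DESeq2 gave each member an adjusted p of 1. edgeR also called 0 members. At an unadjusted p below 0.05, 2 of 9 members passed. These were *G0s2*, with a difference of 2.12 (log2, SE 0.80, 95% interval 0.56 to 3.68, DESeq2 unadjusted p = 0.00788), and *Plin2*, with 0.71 (SE 0.31, interval 0.11 to 1.32, unadjusted p = 0.0211). Both differences are positive, that is, towards a smaller decrease on zinc water. For *Lpin1* (-0.09, interval -1.57 to 1.38), *Angptl8* (0.42, interval -0.96 to 1.80), *Angptl4* (0.48, interval -0.84 to 1.79) and *Pnpla3* (-0.17, interval -1.5 to 1.15) the intervals were wide, and for *Plin5* (0.11, interval -0.23 to 0.45) and *Pnpla2* (0.14, interval -0.32 to 0.61) they were narrower.

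Zinc by itself moved no member past the threshold. In zinc-PBS against water-PBS, 0 of 9 were called by DESeq2 and 0 by edgeR, 0 had an unadjusted p below 0.05, and 17 of 12307 genes were called (0.138%). The groups overlapped in all 9 members, as they did in most genes (11.9% of those tested did not overlap). The estimates furthest from 0 were those of *G0s2* (-1.08, 95% interval -2.17 to 0.01, DESeq2 adjusted p = 0.866) and *Angptl8* (-0.82, interval -1.78 to 0.14, adjusted p = 0.977). That of *Angptl8* was 0.0018 without the third water-PBS mouse. The interval for *Plin5* ran from -0.15 to 0.35, that for *Pnpla2* from -0.01 to 0.66, and that for *Plin2* from -0.75 to 0.11.

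In Dex mice, zinc-Dex against water-Dex, 0 of 9 members were called by DESeq2 and 0 by edgeR, and 60 of 12786 genes were (0.469%). *Pnpla2* alone among the members had an unadjusted p below 0.05, with a log2 difference of 0.47 (SE 0.17, 95% interval 0.14 to 0.79, DESeq2 unadjusted p = 0.00548, adjusted p = 0.183). Its adjusted p ranged from 0.0198 to 0.652 over the alternatives, with the log2 difference below the fold threshold in each. *G0s2* had a log2 difference of 1.04 (interval -0.08 to 2.16, adjusted p = 0.557), the opposite sign to its estimate in PBS mice. *Angptl8* and *Lpin1* were the 2 members whose groups did not overlap (20% of genes tested), at log2 differences of -0.40 and 0.10 that were not called.

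Both treatments together, zinc-Dex against water-PBS, shared the water-PBS mice with the comparison on plain water and the zinc-Dex mice with that on zinc water. In it 4 members rose (3.69% of 21401 genes tested) and 3 fell (3.55%), and the groups were free of overlap in all 9 (29.5% of genes tested). *Plin5* (3.42), *Lpin1* (3.33), *Pnpla2* (1.55) and *Angptl4* (1.43, DESeq2 adjusted p = 0.0213) rose on the log2 scale, and *Angptl8* (-4.04), *G0s2* (-2.62) and *Plin2* (-1.04) fell. *Cidec*, with 20.6, 26.7 and 25.9 normalized counts in zinc-Dex, had a log2 fold change of 1.04 and an adjusted p of 0.0601 in DESeq2 and 0.0116 in edgeR. *Pnpla3* stood at 0.92 (adjusted p = 0.232). The call of *Angptl4* was lost without the second water-PBS mouse (adjusted p = 0.0669), the first zinc-Dex mouse (0.0808) or the second zinc-Dex mouse (0.0504), and with only the 6 libraries compared (0.0886).

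The sequence just before the start of transcription is shown for the 2 members with the largest rise and the 2 with the largest fall in water-Dex against water-PBS, to set these responses beside the DNA next to each start. The sequences are the 250 bases upstream of the RefSeq start on the gene's strand (GRCm38.p6), namely chr12:16610967-16611216 (minus) for *Lpin1*, chr17:56117549-56117798 (minus) for *Plin5*, chr1:193273189-193273438 (minus) for *G0s2* and chr9:21835260-21835509 (plus) for *Angptl8*. *Plin5* and *Cidec* have 2 RefSeq starts each, and the start nearest the annotated gene start was used. Capitals mark matches, on either strand, to any of 6 motifs. These were AGAACA, the hexamer that a single glucocorticoid receptor subunit reads, AGGTCA, the hexamer read by PPAR and its partner RXR, and GTAAACA, which FoxO factors bind. The others were the E-box core CACGTG, read by basic helix-loop-helix factors, the core promoter element TATAAA, bound by the general machinery, and the short element CCAAT, bound by NF-Y.
Lpin1: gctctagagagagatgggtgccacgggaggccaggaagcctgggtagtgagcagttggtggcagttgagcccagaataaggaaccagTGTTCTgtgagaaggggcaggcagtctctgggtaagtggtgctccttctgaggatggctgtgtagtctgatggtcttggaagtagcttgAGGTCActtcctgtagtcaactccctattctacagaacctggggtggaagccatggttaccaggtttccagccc
Plin5: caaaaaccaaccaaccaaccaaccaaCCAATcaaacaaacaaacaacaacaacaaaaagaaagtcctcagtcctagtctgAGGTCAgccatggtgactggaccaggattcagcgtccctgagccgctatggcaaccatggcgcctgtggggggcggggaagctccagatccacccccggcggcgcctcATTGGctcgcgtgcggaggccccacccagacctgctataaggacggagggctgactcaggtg
G0s2: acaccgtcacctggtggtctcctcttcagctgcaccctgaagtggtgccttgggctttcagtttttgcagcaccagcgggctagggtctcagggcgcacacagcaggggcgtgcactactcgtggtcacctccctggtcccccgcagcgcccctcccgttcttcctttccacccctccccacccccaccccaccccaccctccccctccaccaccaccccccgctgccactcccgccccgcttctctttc
Angptl8: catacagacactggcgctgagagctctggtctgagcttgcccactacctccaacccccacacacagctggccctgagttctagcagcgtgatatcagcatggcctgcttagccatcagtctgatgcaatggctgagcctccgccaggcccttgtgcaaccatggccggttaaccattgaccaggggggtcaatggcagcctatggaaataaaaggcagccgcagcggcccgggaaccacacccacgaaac

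Of the 8 members with an entry in the RefSeq promoter table, *Lpin1* was the one with the hexamer AGAACA, read on the opposite strand as TGTTCT at 163 to 158 bases before the start, and 16.1% of 32851 promoters hold it in the same window. *Angptl4* had no entry and was not read. AGGTCA was found in *Lpin1* (74 to 69 bases before the start), *Plin5* (170 to 165) and *Plin2* (218 to 213, opposite strand), and in 14.0% of promoters. *Plin5* held CCAAT at 224 to 220 bases and, on the opposite strand, at 62 to 58 bases. CCAAT was also present in *Plin2* and *Pnpla3*, and in 33.8% of promoters. GTAAACA (3.17% of promoters), CACGTG (6.02%) and TATAAA (12.4%) were in none of the 8 windows, and the windows of *G0s2*, *Angptl8*, *Pnpla2* and *Cidec* held none of the 6 motifs. A match of letters is a description and not a binding site.

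Other genes of the same pathways were read from lists. Outside the targets of the glucocorticoid receptor, 6 lists with 70 genes were examined, and in water-Dex against water-PBS 7 of the 67 tested rose and 3 fell, beside 4.89% higher and 4.79% lower over all genes tested, with a median log2 fold change of 0.01. Among 12 other genes of the lipoprotein lipase axis, *Lipg*, which encodes endothelial lipase, rose (1.30, DESeq2 adjusted p = 7.1e-10) and *Apoa5*, a plasma activator of lipoprotein lipase made in liver, fell (-1.26, adjusted p = 5.3e-16), and the list median was 0.05. *Apoa5* went from 7866 ± 999 to 3285 ± 413 normalized counts (SD, n = 3). Among 12 intracellular lipases and partners, *Lipe*, the hormone-sensitive lipase gene, was the only one called (-0.97, DESeq2 adjusted p = 8.0e-05), with a list median of 0.02. It had 94.5, 80.1 and 98.8 normalized counts in water-PBS and 37.6, 57.4 and 44.5 in water-Dex. *Lipe* missed the fold threshold on zinc water (-0.73).

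Among 12 genes of triglyceride synthesis, of which 11 were tested, *Gpat4* and *Lpin2* rose and none fell, and the median was 0.18. *Gpat4*, a glycerol-3-phosphate acyltransferase of the endoplasmic reticulum and droplets, had 1219, 1191 and 1227 normalized counts in water-PBS and 5000, 5269 and 4833 in water-Dex, 2 narrow groups far apart. It rose by 2.05 (log2, SE 0.08, DESeq2 adjusted p = 1.8e-130). *Lpin2*, the second lipin gene, rose by 1.18 (SE 0.39, adjusted p = 0.0172), less than *Lpin1*. *Gpat3*, a further acyltransferase gene, had a log2 fold change of 0.72 that was short of the fold threshold on plain water and rose by 1.23 on zinc water, and its interaction was not called.

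Among 13 other droplet proteins, of which 11 were tested, *Plin4* was the only one called, and the median was 0.07. *Plin4*, a further perilipin gene, lies 1797 bases from *Plin5* on chromosome 17 (56100591 to 56109803, same strand). It had 22.05, 20.02 and 20.87 normalized counts in water-PBS and 344, 432 and 547 in water-Dex. Both neighbouring perilipin genes were thus high in all Dex mice. *Plin4* rose by 4.40 (log2, SE 0.25, 21.1-fold, DESeq2 adjusted p = 1.0e-66) on plain water and by 4.15 on zinc water. Its exons overlap those of *Hdgfl2* on the opposite strand, and the strand setting of the counting is not given in the sources used here. The adipocyte perilipin gene *Plin1* never passed 3 reads.

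The last lists were of genes driven by PPAR alpha or by insulin and SREBP1c, both of which are known to act on members of the set. Of 12 PPAR alpha targets, *Acot1* (1.82, DESeq2 adjusted p = 0.000683) and *Cyp4a14* (0.95, adjusted p = 3.9e-05) rose and none fell, and the median was 0.02. Of 9 insulin and SREBP1c responsive genes, *Thrsp* rose (2.27, adjusted p = 1.4e-09) and *Srebf1* itself fell (-1.83, adjusted p = 9.8e-27), with a median of -0.27. *Srebf1* encodes the lipogenic transcription factor SREBP1, and its counts went from 1618, 1595 and 2584 in water-PBS to 551, 551 and 527 in water-Dex. The third water-PBS mouse was the highest in *Srebf1* as it was in *Angptl8*.

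On zinc water, 10 of 68 genes of the 6 lists tested rose with Dex and 2 fell, beside 5% higher and 4.68% lower over all genes tested, with *Gpat3*, *Cd36* (0.85) and *Pdk4* (2.83) added to those that rose. Between zinc and plain water, DESeq2 called 0 of 66 genes tested in PBS mice (5 at an unadjusted p below 0.05) and 0 of 66 in Dex mice (9 at an unadjusted p below 0.05), and edgeR called 0 in both. In Dex mice 4 genes, named here after their values were seen, had a DESeq2 adjusted p below 0.05 with a smaller fold: *Cd36* (0.70), *Gpam* (0.62), *Lpl* (0.59) and *Cpt1a* (0.47), all higher in zinc-Dex than in water-Dex. In zinc-Dex against water-PBS, 9 of 69 rose and 2 fell, beside 3.69% and 3.55% of all genes tested.

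**Figure D4:**
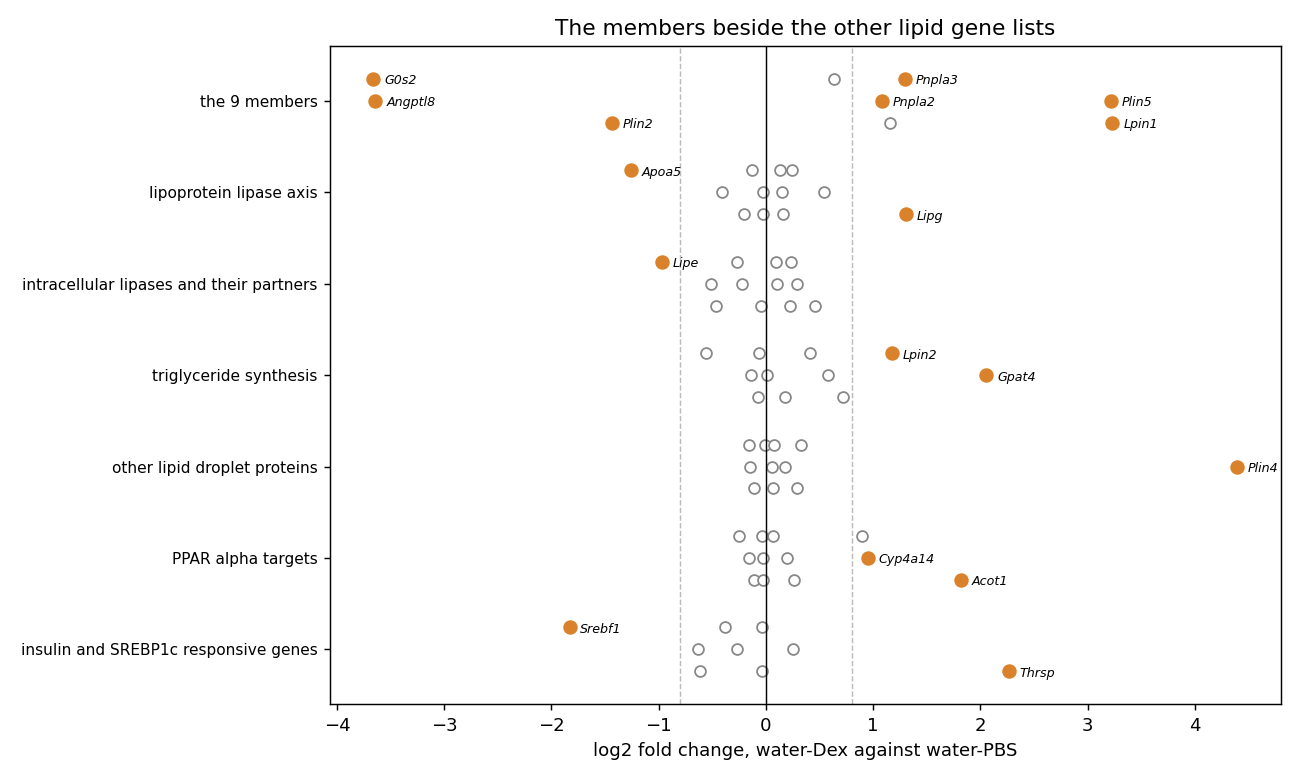
log2 fold changes in water-Dex against water-PBS of the 9 members and of the genes tested in the 6 other lipid lists, 1 point per gene; filled, named points were called and dashed lines mark the fold threshold of 0.8. Most listed genes lie near 0, with *Plin4* (4.40), *Thrsp* (2.27), *Gpat4* (2.05) and *Srebf1* (-1.83) furthest out.

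The genes with the most similar pattern over the 12 libraries were sought among the 9574 genes whose mean normalized count was 50 or more, by Pearson's r of log2(normalized count + 1). The members chosen here differ between PBS and Dex mice, so a high r can come from that difference alone, and no test is given. Closest to *Plin5* were *Bcl2l1* (r = 0.998), *Med13* (0.996) and *Clip1* (0.996), and closest to *Lpin1* were *Pim3* (0.993), *Cebpb* (0.989) and *Coq10b* (0.989). Closest to *Angptl8* were *Mid1ip1* (0.985), *Srebf1* (0.982) and *Anks4b* (0.979). *G0s2* had the loosest partners, *Cyth4* (0.947), *Numa1* (0.945) and *Cldn1* (0.932).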

How the data were processed

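Liver RNA of 12 mice was made into stranded TruSeq libraries, which were read from a single end (Illumina NextSeq 500). Raw counts per Ensembl gene were deposited by the authors, who had aligned reads to mm10 (HISAT2 2.0.4) and counted them with featureCounts without multimapping reads; annotation release and strand setting are not given in the sources used here. Symbols, coordinates and exon lengths came from GENCODE M21, with each length taken over all annotated exons of the gene. DESeq2 1.42.0 (R 4.3.3) was fitted to all 12 libraries and all 54838 genes with a coefficient for each group, as DESeq2 is the tool the study names. Normalized counts are counts divided by DESeq2 size factors. Wald tests were adjusted by Benjamini-Hochberg over all genes tested, and calls required an adjusted p below 0.05 and a log2 fold change beyond 0.8; the interaction used the same fit. Intervals are 1.96 SE either side. edgeR 4.0.16 (quasi-likelihood) and the other alternatives are described in the closing section. With 3 mice a group an exact permutation test cannot go below 0.10, so none was run. Both tests were tried on simulated counts first. Replicates of a group differed by 6.20 to 20.7 times the sampling noise (chi-square per degree of freedom), so none was a repeated library. The members, lists and motifs were chosen with earlier results of these data known. All members are named; of the other lists, called genes are named if their mean normalized count was 50 or more, up to 5 per list and direction, and exceptions are stated. Promoter sequences are RefSeq's. A few genes of the lists are not reported here.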

Additional observations from a re-analysis of the deposited data

How the results depend on the processing

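Each member's log2 fold change was recomputed with edgeR, with TMM scaling, after keeping genes with at least 10 reads in at least 3 libraries, with only the 6 libraries compared, with a replicate block and without each mouse in turn, 11 alternatives for each member in a comparison of groups and 16 for the interaction. Without a mouse, the number of members called ranged from 6 to 7 in water-Dex against water-PBS, from 5 to 7 in zinc-Dex against zinc-PBS and from 6 to 7 in zinc-Dex against water-PBS, and was 0 in both zinc comparisons and in the interaction. Of 99 values per comparison, 9 lost and 3 gained a call in the first, 5 lost and 5 gained in the second, and 4 lost and 4 gained in the third. No called value changed sign. Some values that were not called did when 1 mouse was left out. In zinc-PBS against water-PBS these were *Angptl4* (range -0.61 to 0.40), *Angptl8* (-1.18 to 0.0018), *Pnpla3* (-0.90 to 0.21), *Lpin1* (-0.57 to 0.52) and *Cidec* (-0.058 to 0.35). In zinc-Dex against water-Dex it was *Pnpla3* (-0.71 to 0.23), and in the interaction *Angptl4* (-0.13 to 0.87), *Angptl8* (-0.40 to 0.78), *Pnpla3* (-0.59 to 0.52), *Lpin1* (-0.43 to 0.66) and *Plin5* (-0.0097 to 0.20). Without the fold threshold, 19 genes of the 6 wider lists passed in water-Dex against water-PBS, 23 in zinc-Dex against zinc-PBS, 22 in zinc-Dex against water-PBS and 4 in zinc-Dex against water-Dex, where the threshold itself sets the difference.

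No pairing of mice by replicate number was seen: deviations of same-numbered libraries from their group means correlated between -0.20 and 0.19. Those of differently numbered libraries correlated between -0.24 and 0.28. With 3 mice a group such values cannot exclude a pairing. With a replicate block, 7 members were called in water-Dex against water-PBS, 5 in zinc-Dex against zinc-PBS, 7 in zinc-Dex against water-PBS, and 0 in the other 3 tests. The block lost the calls of *Pnpla3* in the first (adjusted p = 0.232) and *G0s2* in the second (-1.56, adjusted p = 0.0715), and gained that of *Angptl4* in the first (adjusted p = 0.0105). Precision is set mainly by 3 mice a group, and for *Cidec* and *Pnpla3* also by their few reads.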

Other observations

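Some members differed among mice of 1 group by more than others did. In the 3 water-PBS mice the highest level was 4.62 times the lowest for *Angptl4*, 4.21 times for *Angptl8*, 3.81 times for *Lpin1* and 3.68 times for *G0s2*, but 1.17 times for *Plin5* and 1.15 times for *Pnpla2*. Among the members, the third water-PBS mouse held the highest *Angptl8* (1849 normalized counts) and *Plin5* (449) of its group. It held the lowest *Angptl4* (364), *Lpin1* (741), *Plin2* (4258) and *Pnpla2* (546). In *G0s2* (629), *Pnpla3* (34.05) and *Cidec* (13.2) it lay between the others. From the other lists, named after their values were seen, it held the highest *Thrsp* (3571) and the lowest *Lpin2* (1807) and *Acaca* (1074). In the 3 water-Dex mice the same ranges were 1.49 times for *Angptl4*, 1.71 times for *Angptl8*, 1.09 times for *Lpin1* and 1.80 times for *G0s2*, while they were 3.45 times for *Pnpla3* (1.77 in water-PBS), 1.43 times for *Pnpla2* and 1.61 times for *Plin2* (1.53 in water-PBS). In the zinc-PBS group *Lpin1* (4125) and *Angptl4* (1108) were both highest in the first mouse. Labels give no feeding state or sampling hour for single mice, and what sets these differences was not tested.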
